A study of Mus musculus with 6 samples.

Results

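Solute carriers are membrane proteins that move sugars, amino acids, nucleosides, vitamins, metals and ions across the plasma membrane and the membranes of organelles. They do so by facilitated diffusion, exchange or cotransport, and their genes are numbered by family, with members of 1 family usually sharing a fold and often a substrate. The genes described here are the rows of the authors' gene table whose symbol begins with Slc, a family number and a letter, without the mitochondrial Slc25 family and the phosphate carriers of Slc20. There were 145 such genes of 11773 listed, in 39 families. Of these, 4 carry the name of a carrier without being one: Slc9a3r1 and Slc9a3r2, scaffold proteins that bind the sodium-proton exchanger Slc9a3, and Slc4a1ap and Slc7a6os, which are named after a binding partner and after a gene on the opposite strand.

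Polyadenylated RNA was measured in 2H11 cells, a mouse line of the C3H/HeJ strain. The labels call it endothelial and name its tissue as axillary lymph node and vascular epithelium. The cells were starved and held for 48 h with BMP4 and palovarotene (3 libraries, whose deposited columns carry the name R667) or with BMP4 alone (3 libraries). BMP4 is a ligand of the bone morphogenetic protein family, and palovarotene is an agonist of the retinoic acid receptor gamma. Both groups received BMP4, at doses that the labels leave unstated, and no group went without it. Whether the libraries of a group were separate cultures is also unstated, so the tests speak only for the spread among these 6 libraries, a spread that may be technical.

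Of 20 endothelial markers, 8 were listed, with a sum of 30.7 to 32.4 FPKM with BMP4 + palovarotene and 29.3 to 32.7 FPKM with BMP4, most of it from Eng; Pecam1, Kdr and Cdh5, defining markers among the other 12, are not analysed here. All 8 fibroblast and mural markers were listed, with sums of 1162 to 1212 FPKM with BMP4 + palovarotene and 1126 to 1189 FPKM with BMP4. Of 7 epithelial markers only Krt19 was listed (31.3 to 32.4 FPKM with BMP4 + palovarotene and 9.06 to 11.2 FPKM with BMP4), and of 8 leukocyte markers Cd68 and Cd14 were (summed 10.1 to 11.1 FPKM with BMP4 + palovarotene and 16.6 to 17.8 FPKM with BMP4). Of the tested endothelial markers 1 was called higher and 3 lower, of the fibroblast and mural markers 2 higher and 5 lower, Krt19 was higher and Cd68 and Cd14 were lower. Their part in the results below was not tested. In bulk RNA, fewer cells of a type and less RNA per cell cannot be told apart.

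Levels are given as FPKM, fragments scaled to transcript length and sequencing depth, which allows levels of different genes to be set side by side. Tests used limma on log2(FPKM + 1) over every gene that averaged 0.5 FPKM or more, and a gene is said to rise, fall or change where its adjusted p was below 0.05. Fold changes, here called log2 units, are differences on that log2(FPKM + 1) scale with the BMP4 mean subtracted; for genes of low level they come out smaller than the ratio of the levels.

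The solute carriers covered a wide range of levels. Slc38a2, a sodium-coupled carrier of small neutral amino acids, was the highest at 172 ± 4.20 FPKM with BMP4 + palovarotene and 207 ± 11.2 FPKM with BMP4 (SD, n = 3 each), followed by the zinc carriers Slc39a7 (79.6 ± 1.97 FPKM with BMP4 + palovarotene and 82.4 ± 1.97 FPKM with BMP4) and Slc39a1 (72.2 ± 1.64 FPKM with BMP4 + palovarotene and 69.7 ± 2.76 FPKM with BMP4) and by the taurine carrier Slc6a6 (51.9 ± 0.929 FPKM with BMP4 + palovarotene and 56.6 ± 3.71 FPKM with BMP4). Within the BMP4 + palovarotene libraries the lowest value of Slc39a7 lay above the highest of Slc39a1, and likewise within the BMP4 libraries, so that the order of these 2 zinc carriers was kept. A mean of at least 50 FPKM over all libraries was reached by 4 genes, 40 lay between 10 and 50, 84 between 1 and 10, and 17 below 1. The median was 5.98 FPKM, against 7.62 FPKM over all listed genes. Summed over all 145 genes, solute carrier RNA came to 1627, 1640 and 1619 FPKM with BMP4 + palovarotene and 1729, 1713 and 1697 FPKM with BMP4, a difference of -4.90% without overlap (exact permutation test, two-sided, p = 0.1, the smallest that 3 against 3 allows).

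Of the 145 genes, 141 were tested. With palovarotene 29 rose (20.6%) and 43 fell (30.5%), where the background over all 11584 tested genes was 19.1% higher and 23.8% lower (43.0% changed in either direction). The share that rose was near the background, and the share that fell lay above it by a margin that was not tested. The groups did not overlap in 94 of the 141 (background 54.9%). The median fold change of the tested solute carriers was -0.08, against -0.03 over all tested genes. Changes were mostly modest: among genes that rose the log2 fold change ran from 0.16 to 1.45 with a median of 0.47, and among those that fell the size of the change ran from 0.17 to 1.07 with a median of 0.40. On the log2(FPKM + 1) scale a change of at least 2-fold was found for 3 genes that rose (Slc37a1, Slc43a3 and Slc52a3; background 2.07%) and 2 that fell (Slc16a10 and Slc5a3; background 1.66%). Without BMP4 + palovarotene replicate 2, 5 genes rose at least 2-fold, and with a pseudocount of 0.1 in place of 1, 8 rose and 4 fell by that much. By the ratio of mean FPKM, 7 of the genes that rose (background 3.45%) and 5 of those that fell (background 3.5%) changed at least 2-fold; Slc1a6, Slc12a8, Slc30a1 and Slc38a4 joined the first set, and Slc43a2, Slc29a1 and Slc6a17 the other. Of the 72 calls, 52 held in all 6 fits that left out 1 library, 19 were lost in at least 1, and that of Slc12a8 held in the 4 in which it was tested. There were 7 tested genes, 6 of them called, with a group mean under 0.5 FPKM, which were listed through the other group alone. The 6 called were Slc37a1, Slc1a6, Slc12a8, Slc30a1 and Slc7a11, low with BMP4, and Slc43a2, low with BMP4 + palovarotene. Both directions occurred in 15 of the 29 families with a changed gene; 4 had rises alone and 10 falls alone.

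**Figure D1:**
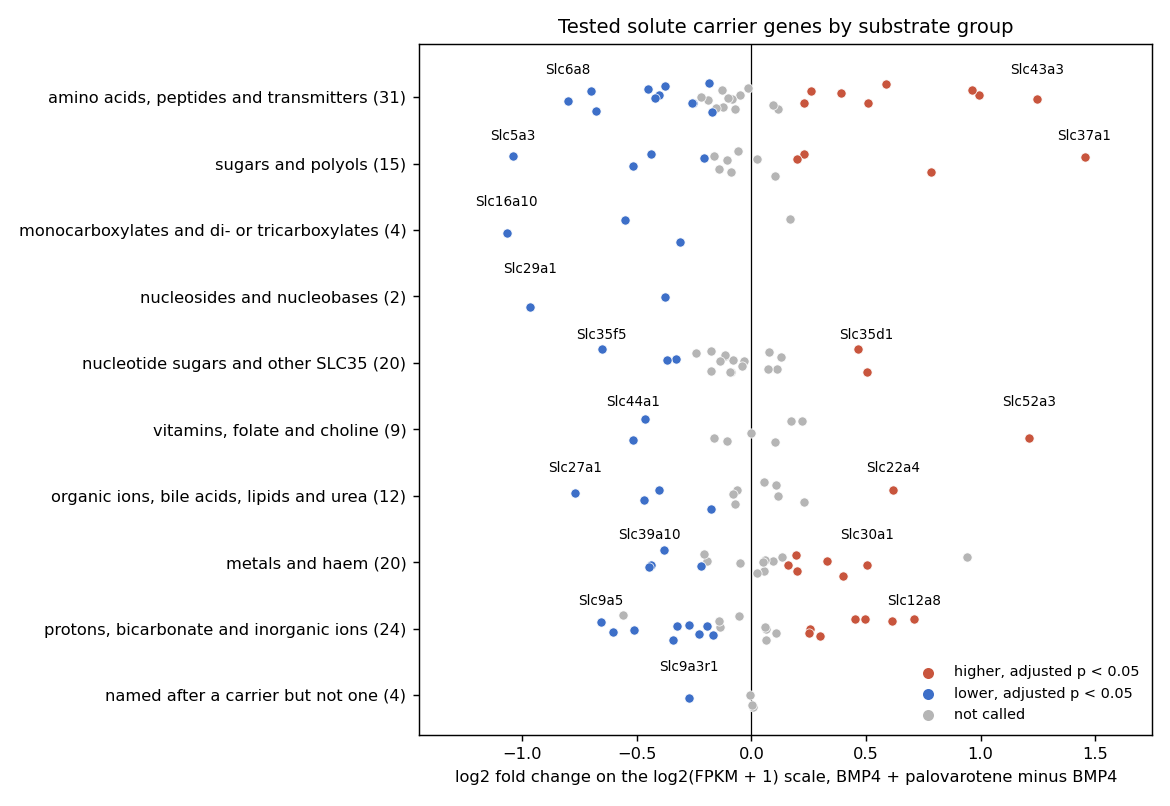
Log2 fold change (x axis, log2(FPKM + 1) scale, BMP4 + palovarotene minus BMP4) of the 141 tested genes, 1 point each, in rows by substrate group with the number tested; red points rose, blue points fell and grey points did not pass the test, and the vertical position within a row has no meaning. The 29 red and 43 blue points are spread over the groups, from -1.07 for Slc16a10 to 1.45 for Slc37a1, and the largest rise and fall of each group are named.

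Carriers of amino acids and related compounds (Slc1, Slc3, Slc6, Slc7, Slc15, Slc17, Slc18, Slc36, Slc38 and Slc43) formed the largest group, with 32 genes, of which 31 were tested, 8 rose (25.8%) and 11 fell (35.5%). The counts of this and the following groups stand against the background over all genes of 19.1% higher and 23.8% lower. The clearest rise in this group was that of Slc43a3, which belongs to a family of amino acid carriers but is known as a carrier of purine nucleobases. It was at 63.97, 66.7 and 66.1 FPKM with BMP4 + palovarotene, against 24.7, 28.9 and 27.7 FPKM with BMP4. The lowest palovarotene library lay at more than 2 times the highest BMP4 library. Slc43a3 rose by 1.25 log2 units (SE 0.0615, adjusted p = 1.03e-05). Its paralogues are carriers of large neutral amino acids: Slc43a1 was at 1.94, 1.78 and 1.81 FPKM with BMP4 + palovarotene, against 1.26, 1.12 and 1.12 FPKM with BMP4, and Slc43a2 at 0.192, 0.560 and 0.490 FPKM with BMP4 + palovarotene, against 1.23, 1.31 and 1.21 FPKM with BMP4. Slc43a1 rose by 0.39 log2 units (SE 0.0538, adjusted p = 0.00127). Slc43a2 fell by 0.68 log2 units (SE 0.102, adjusted p = 0.00194), with BMP4 + palovarotene replicate 1 the lowest of all libraries. The Slc43 genes thus moved in both directions, with Slc43a3 making up 95.2% of their summed level.

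Slc7a5 and Slc1a5, whose proteins import leucine and glutamine and are often described as working together, both rose. Slc7a5 was at 42.1, 43.3 and 41.8 FPKM with BMP4 + palovarotene, against 29.8, 26.9 and 27.02 FPKM with BMP4. Slc7a5 rose by 0.59 log2 units (SE 0.0510, adjusted p = 0.000142). Slc1a5 was at 26.9, 26.96 and 26.8 FPKM with BMP4 + palovarotene, against 18.97, 17.7 and 19.3 FPKM with BMP4. Slc1a5 rose by 0.51 log2 units (SE 0.0460, adjusted p = 0.000177). Every library with palovarotene lay above every library without it for both genes. Slc3a2, the heavy chain that takes Slc7a5 to the cell surface, was at 37.5, 40.03 and 37.9 FPKM with BMP4 + palovarotene and 41.2, 36.7 and 41.97 FPKM with BMP4, overlapped between the groups and did not pass the test (log2 fold change -0.05, adjusted p = 0.529). Other light chains of Slc3a2 differed among themselves: the cystine-glutamate exchanger Slc7a11 rose at a low level (0.692 ± 0.0290 FPKM with BMP4 + palovarotene and 0.444 ± 0.0182 FPKM with BMP4 (SD, n = 3 each); log2 fold change 0.23), the exporter of cationic amino acids Slc7a7 fell (log2 fold change -0.38), and Slc7a6 did not pass the test (log2 fold change -0.09, adjusted p = 0.216). Slc7a1, an importer of arginine and lysine that needs no heavy chain, lay at 9.58 ± 0.332 FPKM with BMP4 + palovarotene and 8.77 ± 0.426 FPKM with BMP4 and did not pass either (log2 fold change 0.12, adjusted p = 0.125).

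Among the sodium-coupled carriers of the Slc38 family, 1 rose and 3 fell. Slc38a4 was at 19.8, 18.7 and 20.1 FPKM with BMP4 + palovarotene, against 8.80, 10.2 and 9.02 FPKM with BMP4. Slc38a4 rose by 0.99 log2 units (SE 0.0633, adjusted p = 3.41e-05). The most abundant member, Slc38a2, was at 172, 168 and 176 FPKM with BMP4 + palovarotene, against 197, 219 and 204 FPKM with BMP4. Slc38a2 fell by 0.26 log2 units (SE 0.0497, adjusted p = 0.00552). Each group kept to its own range in both genes. Slc38a1, a glutamine carrier, fell by 0.25 and Slc38a7, which exports glutamine from lysosomes, by 0.45, while Slc38a6 (log2 fold change -0.22, adjusted p = 0.0509), Slc38a9, a lysosomal arginine sensor (log2 fold change -0.02, adjusted p = 0.852), and Slc38a10 (log2 fold change -0.10, adjusted p = 0.24) did not pass the test. The fall of Slc38a2 outweighed the rise of Slc38a4 in absolute level, and the sum of the 7 Slc38 genes was 237, 231 and 241 FPKM with BMP4 + palovarotene and 260.0, 280.3 and 263 FPKM with BMP4.

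Of the remaining genes in this group, Slc1a4, a carrier of alanine, serine and cysteine, fell (log2 fold change -0.40), against the rise of its paralogue Slc1a5. Slc1a6, a glutamate carrier best known from Purkinje neurons, rose at a low level and was at 1.70, 1.14 and 1.66 FPKM with BMP4 + palovarotene, against 0.169, 0.305 and 0.360 FPKM with BMP4. Slc1a6 rose by 0.96 log2 units (SE 0.106, adjusted p = 0.000456). Slc6a8, which imports creatine, was called lower, at 10.05, 12.5 and 12.5 FPKM with BMP4 + palovarotene, against 31.3, 19.9 and 14.7 FPKM with BMP4 (log2 fold change -0.80, SE 0.246, adjusted p = 0.0371). The BMP4 libraries differed widely among themselves, and the call was lost without BMP4 + palovarotene replicate 1, 2 or 3 or BMP4 replicate 2. Slc6a17, a vesicular carrier of neutral amino acids in neurons, fell (1.55 ± 0.430 FPKM with BMP4 + palovarotene and 3.12 ± 0.577 FPKM with BMP4 (SD, n = 3 each); log2 fold change -0.70, adjusted p = 0.00875). The lysosomal carriers Slc15a4, Slc36a1 and Slc17a5 were called lower, by 0.42, 0.18 and 0.17. The call of Slc17a5 was lost whichever library was left out and that of Slc36a1 without BMP4 + palovarotene replicate 1, 2 or 3 or BMP4 replicate 1 or 3. The transcript Slc15a4-201 went against its gene, at 7.91, 7.89 and 2.94 FPKM with BMP4 + palovarotene and 2.07, 1.29 and 1.80 FPKM with BMP4. It did not pass the test over transcripts (log2 fold change 1.33, adjusted p = 0.0751), and the fall of Slc15a4 is uncertain to that extent. Slc18b1, a vesicular polyamine carrier, was called higher (log2 fold change 0.26, adjusted p = 0.0482), though not without BMP4 + palovarotene replicate 1, 2 or 3 or BMP4 replicate 2 or 3.

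**Figure D2:**
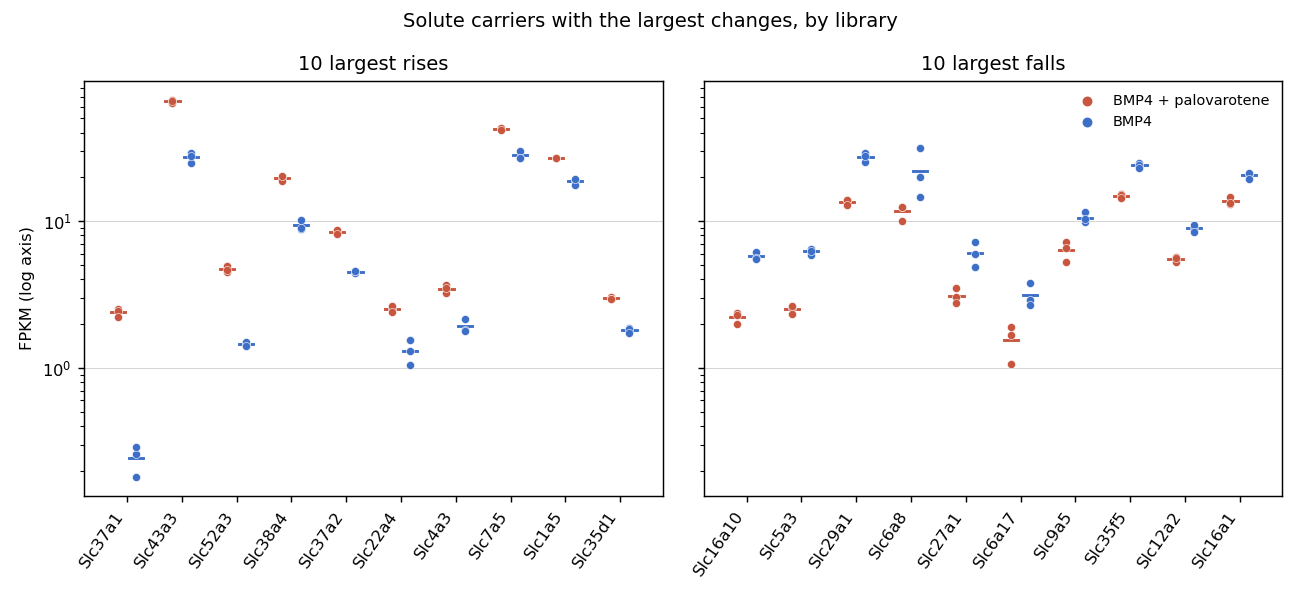
FPKM (log axis) in each library for the 10 genes with the largest rise (left) and the 10 with the largest fall (right) among called genes averaging 1 FPKM or more, without overlap; points are libraries, bars are means, red is BMP4 + palovarotene and blue is BMP4. Slc37a1 stands apart by its low level with BMP4 (0.180 to 0.290 FPKM), and Slc6a8 by the spread of its BMP4 libraries (14.7 to 31.3 FPKM).

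Carriers in the families of sugars, sugar phosphates and polyols numbered 16, of which 15 were tested, 4 rose and 4 fell (26.7% each). Grouping by family number places the vitamin carrier Slc5a6 and the choline carrier Slc5a7 here as well. All 4 members of the Slc37 family, carriers of sugar phosphates in the membrane of the endoplasmic reticulum or of lysosomes, were called. Slc37a1 (chromosome 17, 31295483 to 31350696, GRCm38) had the largest rise among tested solute carriers. It was at 2.53, 2.46 and 2.24 FPKM with BMP4 + palovarotene, against 0.261, 0.180 and 0.290 FPKM with BMP4, a ratio of means of 9.87. Its BMP4 mean of 0.244 FPKM lay under the bound of the table, so the gene was listed through its palovarotene libraries alone. Slc37a1 rose by 1.45 log2 units (SE 0.0603, adjusted p = 4.75e-06). Slc37a2 was at 8.66, 8.62 and 8.13 FPKM with BMP4 + palovarotene, against 4.40, 4.57 and 4.53 FPKM with BMP4. Slc37a2 rose by 0.78 log2 units (SE 0.0489, adjusted p = 3.08e-05). The groups lay well apart in both genes. The 3 libraries of each group lay close together in Slc37a2, whereas the low BMP4 values of Slc37a1 varied more relative to their mean. Slc37a3, which in human cells releases nitrogen-containing bisphosphonates from lysosomes, was higher by a small margin (9.53 ± 0.209 FPKM with BMP4 + palovarotene and 7.99 ± 0.480 FPKM with BMP4 (SD, n = 3 each); log2 fold change 0.23, adjusted p = 0.0149). This call was lost without BMP4 + palovarotene replicate 1 or 3. Slc37a4, the glucose-6-phosphate translocase that supplies glucose-6-phosphatase, went the other way and was at 2.08, 2.23 and 2.01 FPKM with BMP4 + palovarotene, against 2.89, 3.31 and 3.46 FPKM with BMP4. Slc37a4 fell by 0.44 log2 units (SE 0.0682, adjusted p = 0.0022). Summed over the family, the level was 23.0, 22.6 and 21.9 FPKM with BMP4 + palovarotene and 15.5, 16.6 and 15.8 FPKM with BMP4.

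Among the Slc2 glucose carriers 1 was called higher and 1 lower. Slc2a1, the widely expressed glucose carrier and the most abundant gene of the group, was called lower, at 19.4, 19.6 and 18.3 FPKM with BMP4 + palovarotene, against 23.2, 21.97 and 21.4 FPKM with BMP4 (log2 fold change -0.21, SE 0.0494, adjusted p = 0.0144), and the call was lost without BMP4 + palovarotene replicate 3. Slc2a8, a glucose carrier of internal membranes, was called higher (log2 fold change 0.20, adjusted p = 0.0498), though not without BMP4 + palovarotene replicate 1, 2 or 3 or BMP4 replicate 2 or 3. The other 4 Slc2 genes (Slc2a4, Slc2a6, Slc2a9 and Slc2a10) did not pass the test, with log2 fold changes from -0.16 to -0.09.

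Both tested Slc5 carriers, which are sodium-coupled, fell. Slc5a3 imports myo-inositol, which cells gather as an osmolyte and use for phosphoinositides. It was at 2.55, 2.33 and 2.62 FPKM with BMP4 + palovarotene, against 5.86, 6.49 and 6.28 FPKM with BMP4. Slc5a3 fell by 1.04 log2 units (SE 0.0603, adjusted p = 2.11e-05), and every palovarotene library lay far below every BMP4 library. Slc5a3 shares exons on the same strand with Mrps6, a mitochondrial ribosomal protein gene, so its separate value is uncertain. Slc5a6, an importer of biotin and pantothenate, was at 2.28, 2.502 and 2.18 FPKM with BMP4 + palovarotene, against 3.74, 3.71 and 3.79 FPKM with BMP4. Slc5a6 fell by 0.52 log2 units (SE 0.0557, adjusted p = 0.0004). Slc5a7, a choline carrier of cholinergic neurons, was too low for the test, at 0.0117, 0.0133 and 0 FPKM with BMP4 + palovarotene, against 0.675, 0.980 and 0.845 FPKM with BMP4. Its values were near 0 in all palovarotene libraries, so it was listed through its BMP4 libraries alone.

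The Slc16 family includes proton-coupled carriers of lactate, pyruvate and related acids, and 4 of its genes were listed. Of these 3 fell and 0 rose by limma (1 higher at an unadjusted p below 0.05). Slc16a10 carries aromatic amino acids and thyroid hormones rather than lactate and had the largest fall among tested solute carriers on the log2(FPKM + 1) scale. The ratio of means was larger for Slc43a2 (3.02, BMP4 over BMP4 + palovarotene), which was listed through its BMP4 libraries alone. Slc16a10 was at 2.38, 2.003 and 2.28 FPKM with BMP4 + palovarotene, against 6.11, 5.64 and 5.48 FPKM with BMP4. Slc16a10 fell by 1.07 log2 units (SE 0.0671, adjusted p = 3.21e-05), and the ratio of the BMP4 mean to the BMP4 + palovarotene mean was 2.59. Slc16a1, a lactate carrier found in most cells, was at 14.5, 12.96 and 13.4 FPKM with BMP4 + palovarotene, against 20.9, 21.1 and 19.2 FPKM with BMP4. Slc16a1 fell by 0.55 log2 units (SE 0.0598, adjusted p = 0.000412). Slc16a13 fell at a low level (0.577 ± 0.0639 FPKM with BMP4 + palovarotene and 0.955 ± 0.0381 FPKM with BMP4 (SD, n = 3 each); log2 fold change -0.31, adjusted p = 0.00308). The groups did not overlap in these 3. Slc16a3, the lactate exporter of glycolytic cells, lay at 10.4, 10.2 and 9.05 FPKM with BMP4 + palovarotene and 8.41, 8.52 and 9.06 FPKM with BMP4 and did not pass the test (log2 fold change 0.17, adjusted p = 0.073); it was called higher under quantile normalization, under median-ratio scaling and without BMP4 + palovarotene replicate 3.

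Both equilibrative nucleoside carriers fell. Slc29a1, which lets adenosine and other nucleosides cross the plasma membrane, was at 13.9, 13.9 and 12.8 FPKM with BMP4 + palovarotene, against 29.2, 25.3 and 27.7 FPKM with BMP4. Slc29a1 fell by 0.96 log2 units (SE 0.0651, adjusted p = 4.50e-05). Slc29a3, its paralogue of lysosomes, was at 3.99, 3.72 and 3.96 FPKM with BMP4 + palovarotene, against 5.01, 5.84 and 5.21 FPKM with BMP4. Slc29a3 fell by 0.38 log2 units (SE 0.0649, adjusted p = 0.00356). In neither gene did the groups overlap. Their summed level was 17.9, 17.6 and 16.8 FPKM with BMP4 + palovarotene and 34.2, 31.1 and 32.9 FPKM with BMP4.

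The Slc35 family, most of whose characterized members carry nucleotide sugars into the Golgi apparatus and the endoplasmic reticulum, held 20 genes, all tested. It had 15 members that did not pass the test, 2 that rose (10%) and 3 that fell (15%), both shares below the background by margins that were not tested. Slc35d1, which supplies UDP-glucuronic acid and UDP-N-acetylgalactosamine and is needed for chondroitin sulfate in mouse cartilage, was at 3.06, 2.94 and 2.96 FPKM with BMP4 + palovarotene, against 1.85, 1.85 and 1.74 FPKM with BMP4. Slc35d1 rose by 0.50 log2 units (SE 0.0488, adjusted p = 0.000245). Slc35a3, a carrier of UDP-N-acetylglucosamine, was at 5.99, 5.40 and 5.82 FPKM with BMP4 + palovarotene, against 3.75, 4.39 and 3.51 FPKM with BMP4. Slc35a3 rose by 0.47 log2 units (SE 0.0787, adjusted p = 0.00318). Both kept the groups apart. Slc35f5 was at 15.3, 14.9 and 14.4 FPKM with BMP4 + palovarotene, against 24.8, 24.1 and 23.1 FPKM with BMP4. Slc35f5 fell by 0.65 log2 units (SE 0.0464, adjusted p = 5.64e-05), and Slc35e3 and Slc35e4 fell by 0.33 and 0.37. The most abundant member, Slc35b1, was at 30.3 ± 0.937 FPKM with BMP4 + palovarotene and 28.7 ± 1.37 FPKM with BMP4 (log2 fold change 0.08, adjusted p = 0.261), and Slc35b2, the carrier of the sulfate donor PAPS, at 30.1 ± 1.18 FPKM with BMP4 + palovarotene and 27.9 ± 2.57 FPKM with BMP4 (log2 fold change 0.11, adjusted p = 0.247). Slc35e2 varied between libraries far more than between groups, at 1.77, 5.54 and 1.91 FPKM with BMP4 + palovarotene and 1.36, 6.17 and 1.66 FPKM with BMP4, with replicate 2 high in both.

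**Figure D3:**
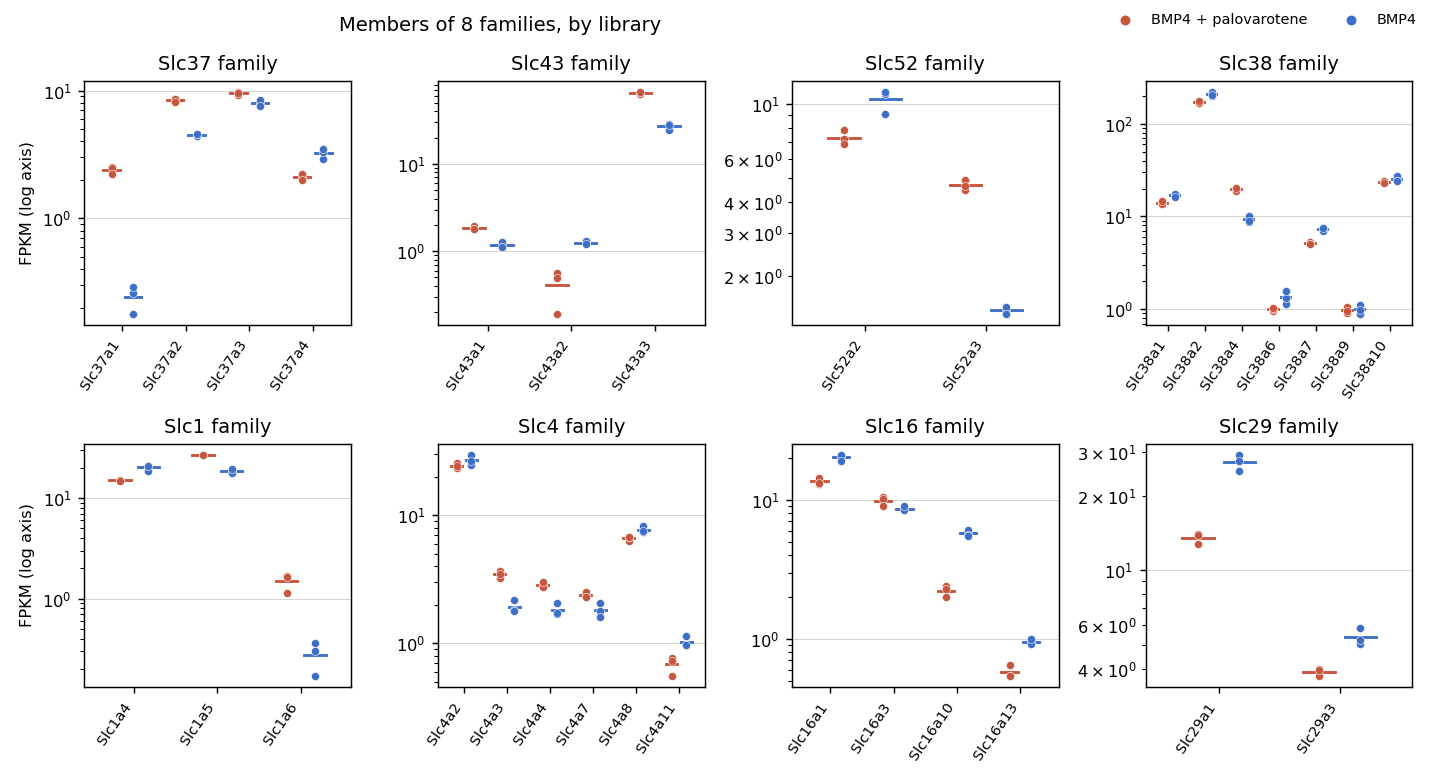
FPKM (log axis, 1 panel per family) in each library for the tested members of 8 families; points are libraries, bars are means, red is BMP4 + palovarotene and blue is BMP4. Red lies above blue for Slc37a1, Slc37a2, Slc43a3, Slc52a3 and Slc38a4 and below it for Slc37a4, Slc43a2, Slc52a2, Slc38a2, both Slc29 genes and Slc16a10.

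Of 9 carriers in the families of vitamins, folate and choline, 1 rose (11.1%) and 2 fell (22.2%). These counts leave out Slc5a6 and Slc5a7, which were grouped by family number with the sugar carriers. The riboflavin carriers moved in opposite directions: Slc52a3 was at 4.94, 4.46 and 4.63 FPKM with BMP4 + palovarotene, against 1.45, 1.496 and 1.41 FPKM with BMP4, and Slc52a2 at 7.20, 7.83 and 6.86 FPKM with BMP4 + palovarotene, against 11.04, 9.13 and 11.2 FPKM with BMP4. Slc52a3 rose by 1.21 log2 units (SE 0.0540, adjusted p = 6.62e-06). Slc52a2 fell by 0.46 log2 units (SE 0.0866, adjusted p = 0.0051). The ratio of the means of Slc52a3 was 3.23. Slc52a2 was the more abundant of the pair in both groups, although the gap was smaller with palovarotene. Slc44a1, a choline carrier and the most abundant gene of this group, was at 37.7, 34.8 and 37.6 FPKM with BMP4 + palovarotene, against 49.7, 56.7 and 52.2 FPKM with BMP4, without overlap. Slc44a1 fell by 0.51 log2 units (SE 0.0607, adjusted p = 0.000627). The folate carriers Slc19a1 (log2 fold change -0.17, adjusted p = 0.0716) and Slc46a1 (log2 fold change 0.11, adjusted p = 0.236) and the ascorbate carrier Slc23a2 (log2 fold change 0.22, adjusted p = 0.0559) did not pass the test.

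Of 13 carriers of organic ions, bile acids and fatty acids, 12 were tested, 1 rose (8.33%) and 4 fell (33.3%). Slc22a4, the ergothioneine carrier, was at 2.53, 2.63 and 2.41 FPKM with BMP4 + palovarotene, against 1.56, 1.31 and 1.05 FPKM with BMP4. Slc22a4 rose by 0.62 log2 units (SE 0.0862, adjusted p = 0.00136). Slc22a21, a close paralogue known in mouse as a carnitine carrier, was at 1.80, 1.78 and 1.78 FPKM with BMP4 + palovarotene, against 2.69, 2.72 and 2.65 FPKM with BMP4. Slc22a21 fell by 0.40 log2 units (SE 0.0459, adjusted p = 0.000524). Neither gene overlapped between the groups. The main carnitine carrier Slc22a5, of the same subgroup, lay at 4.66 ± 0.1003 FPKM with BMP4 + palovarotene and 4.95 ± 0.103 FPKM with BMP4 and missed the threshold (log2 fold change -0.07, adjusted p = 0.268). The fatty acid transport proteins Slc27a1 (3.09 ± 0.356 FPKM with BMP4 + palovarotene and 6.02 ± 1.18 FPKM with BMP4 (SD, n = 3 each); log2 fold change -0.77, adjusted p = 0.00315) and Slc27a3 (log2 fold change -0.47) were called lower, the second of these not without BMP4 + palovarotene replicate 1, 2 or 3 or BMP4 replicate 1 or 3, while Slc27a4, the most abundant of the group, did not pass (log2 fold change 0.12, adjusted p = 0.253). The transcript Slc27a1-204 went against its gene at a low level, with means of 0.580 FPKM with BMP4 + palovarotene and 0.0681 FPKM with BMP4. It was too low for the test over transcripts, and the fall of Slc27a1 is uncertain to that extent. Slc22a18 was called lower (log2 fold change -0.18), though not without BMP4 + palovarotene replicate 1 or 3 or BMP4 replicate 2 or 3. Slc10a6, a carrier of sulfated steroids, was too low for the test, at 0.131, 0.0993 and 0.251 FPKM with BMP4 + palovarotene, against 0.775, 0.562 and 0.820 FPKM with BMP4. It was listed through its BMP4 libraries alone.

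Metal and haem carriers numbered 20, of which 6 were called higher (30%) and 4 lower (20%), and the rises were weak: only 1 of the 6, that of Slc48a1, held whichever library was left out, and without BMP4 replicate 3 it was the only 1 left. Without BMP4 + palovarotene replicate 1, 2 or 3, 3 were called higher, and without BMP4 replicate 1 or 2, 4 were. Slc48a1, which releases haem from lysosomes, was at 33.4, 35.2 and 36.3 FPKM with BMP4 + palovarotene, against 23.2, 28.2 and 27.7 FPKM with BMP4. Slc48a1 rose by 0.40 log2 units (SE 0.0797, adjusted p = 0.00677). It shares exon positions with Hdac7 on the opposite strand. The zinc exporter Slc30a1 was at 0.976, 0.641 and 1.28 FPKM with BMP4 + palovarotene, against 0.381, 0.471 and 0.278 FPKM with BMP4 (log2 fold change 0.50, adjusted p = 0.0152), though not without BMP4 replicate 3. The iron importer Slc11a2 was at 10.4, 9.72 and 10.4 FPKM with BMP4 + palovarotene, against 8.73, 9.11 and 8.45 FPKM with BMP4 (log2 fold change 0.19, adjusted p = 0.0215), though not without BMP4 + palovarotene replicate 1 or 3 or BMP4 replicate 3. All 4 falls were of zinc carriers and held whichever library was left out. The Slc30 and Slc39 families of these carriers make up most of the group, with 6 and 10 genes. They also held 2 and 1 of the calls higher. Slc39a10 was at 8.78, 8.87 and 8.48 FPKM with BMP4 + palovarotene, against 11.3, 13.3 and 12.1 FPKM with BMP4. Slc39a10 fell by 0.45 log2 units (SE 0.0650, adjusted p = 0.00165), and Slc39a6, which pairs with it, fell by 0.22. Slc39a13, whose loss in humans causes a connective tissue disorder, was at 11.4, 12.7 and 11.6 FPKM with BMP4 + palovarotene, against 17.8, 14.9 and 16.8 FPKM with BMP4. Slc39a13 fell by 0.44 log2 units (SE 0.0741, adjusted p = 0.0032), and the zinc carrier of vesicles Slc30a4 fell by 0.38. Slc39a14, a carrier of zinc, iron and manganese, did not pass the test (log2 fold change -0.21, adjusted p = 0.054). Slc39a9 stood apart, at 5.79, 5.34 and 1.78 FPKM with BMP4 + palovarotene, against 1.63, 1.58 and 1.496 FPKM with BMP4: 2 of the 3 palovarotene libraries were high and 1 lay just above the BMP4 libraries. Its log2 fold change of 0.94 did not pass the test (adjusted p = 0.0516), and it shares exon positions with Erh on the opposite strand.

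Carriers of protons, bicarbonate and inorganic ions numbered 25, of which 24 were tested, 7 rose (29.2%) and 9 fell (37.5%). Among the cation-chloride cotransporters, Slc12a2, which loads cells with sodium, potassium and chloride, was at 5.69, 5.25 and 5.56 FPKM with BMP4 + palovarotene, against 8.79, 9.44 and 8.44 FPKM with BMP4. Slc12a2 fell by 0.60 log2 units (SE 0.0583, adjusted p = 0.00024). In Slc12a2 the groups did not overlap. Slc12a4, a potassium-chloride exporter and the most abundant ion carrier, lay at 30.5, 33.04 and 31.9 FPKM with BMP4 + palovarotene and 37.2, 30.4 and 31.8 FPKM with BMP4 and did not pass (log2 fold change -0.05, adjusted p = 0.616). Slc12a8, a distant relative, rose at a low level and was at 0.814, 1.03 and 1.03 FPKM with BMP4 + palovarotene, against 0.249, 0.145 and 0.199 FPKM with BMP4. Slc12a8 rose by 0.71 log2 units (SE 0.0659, adjusted p = 0.000196).

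Bicarbonate carriers of the Slc4 family included 3 that rose. Slc4a3, a chloride-bicarbonate exchanger, was at 3.24, 3.68 and 3.47 FPKM with BMP4 + palovarotene, against 2.16, 1.81 and 1.79 FPKM with BMP4. Slc4a3 rose by 0.61 log2 units (SE 0.0709, adjusted p = 0.000563). Slc4a4, a sodium-bicarbonate cotransporter, was at 2.87, 2.74 and 2.99 FPKM with BMP4 + palovarotene, against 1.70, 2.05 and 1.73 FPKM with BMP4. Slc4a4 rose by 0.45 log2 units (SE 0.0660, adjusted p = 0.00167). In both, all palovarotene libraries were the higher ones. The call of Slc4a7 (log2 fold change 0.25) was lost without BMP4 + palovarotene replicate 1, 2 or 3 or BMP4 replicate 1 or 3. Slc4a8 and Slc4a11 were called lower, by 0.19 and 0.27, the first not without BMP4 + palovarotene replicate 1, 2 or 3 or BMP4 replicate 1 or 3 and the second not without BMP4 + palovarotene replicate 1 or BMP4 replicate 2. Slc4a2, the most abundant Slc4 gene, lay at 24.3 ± 1.15 FPKM with BMP4 + palovarotene and 26.9 ± 2.53 FPKM with BMP4 and missed the threshold (log2 fold change -0.14, adjusted p = 0.176). Among the sodium-proton exchangers, Slc9a8 of the Golgi apparatus rose (log2 fold change 0.49, adjusted p = 0.00105) and Slc9a5 fell, at 5.29, 7.24 and 6.52 FPKM with BMP4 + palovarotene, against 11.5, 9.89 and 10.2 FPKM with BMP4. Slc9a5 fell by 0.66 log2 units (SE 0.107, adjusted p = 0.00277). The sulfate carrier Slc26a2, which cartilage needs for sulfated proteoglycans, was at 2.85, 2.86 and 2.83 FPKM with BMP4 + palovarotene and 2.77, 2.62 and 2.65 FPKM with BMP4 (log2 fold change 0.06, adjusted p = 0.326). Slc26a6 and Slc26a11 fell by 0.32 and 0.51. The magnesium carriers of Slc41 moved both ways, Slc41a1 by 0.25 and Slc41a2 by -0.34. Of the genes that are not carriers, the scaffold Slc9a3r1 fell (26.2 ± 0.710 FPKM with BMP4 + palovarotene and 31.9 ± 1.88 FPKM with BMP4 (SD, n = 3 each); log2 fold change -0.27, adjusted p = 0.00633), whereas Slc9a3r2 (0.00), Slc4a1ap (-0.01) and Slc7a6os (0.01) did not pass the test. Of the genes described with their values, Slc39a13, Slc4a1ap, Slc4a2, Slc5a6 and Slc7a7 also share exon positions on the opposite strand, with Psmc3, Supt7l, Fastk, Atraid and Oxa1l, in that order, and their values are uncertain to that extent.

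Transcript values were noisier than gene values. Of 265 listed transcripts of solute carriers 242 were tested, and 19 rose and 19 fell, against a background of 6.49% higher and 6.42% lower over 21101 transcripts (12.9% in either direction). At least 2-fold changes were found for 5 that rose and 4 that fell, against backgrounds of 1.72% and 1.36%, and 103 did not overlap between the groups (background 34.4%). The number that rose was 10, 9 and 11 without BMP4 + palovarotene replicate 1, 2 and 3, and 10 without BMP4 replicate 3, and the number that fell was 8, 11, 8 and 11 in the same order. No gene had called transcripts in opposite directions, 34 of the 38 called transcripts belonged to a gene called the same way, and 4 to a gene that was not called. Among these 4, Slc10a7-201, from a gene whose loss in humans causes a skeletal disorder, was at 3.71, 2.61 and 2.500 FPKM with BMP4 + palovarotene, against 0.0164, 0.352 and 0.262 FPKM with BMP4 (log2 fold change 1.70, SE 0.180, adjusted p = 0.00382), while the gene value was 1.81, 1.40 and 1.35 FPKM with BMP4 + palovarotene and 1.13, 1.61 and 1.54 FPKM with BMP4 (log2 fold change 0.06, adjusted p = 0.692). The gene value lay below that of this 1 listed transcript in the palovarotene libraries, so the 2 tables do not add up for Slc10a7. Nor do they for some other genes. With BMP4 + palovarotene, Slc16a3-201 averaged 20.7 FPKM against 9.88 FPKM for its gene, and Slc35a3-201 10.7 FPKM against 5.74 FPKM. Slc8b1-202, from the gene of the mitochondrial sodium-calcium exchanger, was at 3.06, 3.70 and 2.94 FPKM with BMP4 + palovarotene, against 10.1, 7.11 and 8.54 FPKM with BMP4. Slc8b1-202 fell by 1.17 log2 units (SE 0.147, adjusted p = 0.00687). The gene value of Slc8b1 was 7.11, 7.28 and 6.66 FPKM with BMP4 + palovarotene and 14.3, 7.01 and 12.5 FPKM with BMP4, with BMP4 replicate 2 in the range of the palovarotene libraries, and did not pass (log2 fold change -0.56, adjusted p = 0.0845). The other 2 were Slc39a3-201 and Slc44a2-205. The call of Slc39a3-201 was lost whichever library was left out. That of Slc44a2-205 was lost without BMP4 + palovarotene replicate 1, 2 or 3 or BMP4 replicate 1 or 3. With the replicate number as a block in the fit, none of these 4 transcripts passed the test.

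The upstream sequences of 4 genes are shown because these had the largest rises (Slc37a2 and Slc22a4) and the largest falls (Slc16a10 and Slc5a3) among called genes with 1 start in RefSeq whose upstream window reached no more than 10 bases into the gene of the authors' table. Retinoic acid receptors bind, with retinoid X receptors, to direct repeats of a motif of 6 bases. Its consensus form AGGTCA was searched on both strands, together with the known variant AGTTCA, a further known variant GGGTCA, and the last variant searched, GGTTCA. Each line gives the 250 bases before the start, 5′ to 3′ on the strand of the gene, from RefSeq on GRCm38.p6, with matches in capitals.
Slc37a2: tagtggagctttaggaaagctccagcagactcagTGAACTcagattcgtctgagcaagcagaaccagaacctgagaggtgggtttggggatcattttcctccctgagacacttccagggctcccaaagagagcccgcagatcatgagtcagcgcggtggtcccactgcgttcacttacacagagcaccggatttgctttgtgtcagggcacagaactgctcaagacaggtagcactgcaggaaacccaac
Slc22a4: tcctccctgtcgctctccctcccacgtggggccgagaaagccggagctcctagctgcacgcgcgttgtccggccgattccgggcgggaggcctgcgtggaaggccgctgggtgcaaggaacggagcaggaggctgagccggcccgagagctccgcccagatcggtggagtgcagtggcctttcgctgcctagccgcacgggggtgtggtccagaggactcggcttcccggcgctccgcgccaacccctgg
Slc16a10: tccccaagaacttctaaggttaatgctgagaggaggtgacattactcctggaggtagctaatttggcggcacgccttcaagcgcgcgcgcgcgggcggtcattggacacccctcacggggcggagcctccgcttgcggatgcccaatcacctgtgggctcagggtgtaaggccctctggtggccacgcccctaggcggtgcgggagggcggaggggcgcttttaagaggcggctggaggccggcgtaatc
Slc5a3: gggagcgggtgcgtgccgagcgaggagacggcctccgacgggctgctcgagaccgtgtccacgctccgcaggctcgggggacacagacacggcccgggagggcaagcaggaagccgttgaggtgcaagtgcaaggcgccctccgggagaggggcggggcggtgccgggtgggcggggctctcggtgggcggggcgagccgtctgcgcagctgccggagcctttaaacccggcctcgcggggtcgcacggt
These windows are chr9:37255739-37255988, minus strand for Slc37a2; chr11:54028105-54028354, minus strand for Slc22a4; chr10:40142255-40142504, minus strand for Slc16a10 and chr16:92058072-92058321, plus strand for Slc5a3. Only that of Slc37a2 held a motif, in the reverse orientation, and none of the 4 held a direct repeat with 1, 2 or 5 bases between the motifs. Single motifs were in 38.6% of all 32851 upstream windows in the table and in 37.3% of the 158 windows of solute carriers, which cover 114 of the 145 genes. A direct repeat with 1 base between occurred in 0.164% of all windows and in 0 of the 158. A direct repeat with 5 bases between occurred in 0.0883% of all windows and in 0 of the 158. A repeat with 2 bases between occurred in 0.174% of all windows and in 2 of the 158, those of Slc45a3 and Slc7a7; of these Slc45a3 did not pass the test (log2 fold change 0.03, adjusted p = 0.849) and Slc7a7 fell.

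Genes that work beside solute carriers were read from a list of 50, of which 41 were listed and tested, 11 rose and 11 fell (26.8% each, against the background of 19.1% higher and 23.8% lower); without BMP4 + palovarotene replicate 3, 7 rose. The largest changes lay in the machinery of ion transport. Stk39, which encodes the kinase SPAK that activates Slc12a2 and inhibits potassium-chloride exporters, was at 13.5, 13.9 and 14.1 FPKM with BMP4 + palovarotene, against 1.35, 1.38 and 1.46 FPKM with BMP4. Stk39 rose by 2.63 log2 units (SE 0.0493, adjusted p = 2.65e-07), and the libraries of each group lay close together. Its relative Oxsr1 (log2 fold change -0.17, adjusted p = 0.0604) and the upstream kinase Wnk1 (log2 fold change -0.01, adjusted p = 0.893) did not pass the test, and Wnk4 was called higher at a low level (log2 fold change 0.22), not without BMP4 + palovarotene replicate 3 or BMP4 replicate 3. The sodium-potassium ATPase maintains the gradient that sodium-coupled carriers use. Its regulatory subunit gene Atp1b1 was at 2.25, 2.19 and 2.07 FPKM with BMP4 + palovarotene, against 17.8, 20.3 and 17.9 FPKM with BMP4. Atp1b1 fell by 2.63 log2 units (SE 0.0650, adjusted p = 4.89e-07). The more abundant Atp1b3 fell, at 89.1 ± 2.73 FPKM with BMP4 + palovarotene and 117 ± 2.09 FPKM with BMP4 (SD, n = 3 each) (log2 fold change -0.39, adjusted p = 0.000325), and Fxyd5 fell by 0.60. Atp1b2 rose by 0.29 at a low level.

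**Figure D4:**
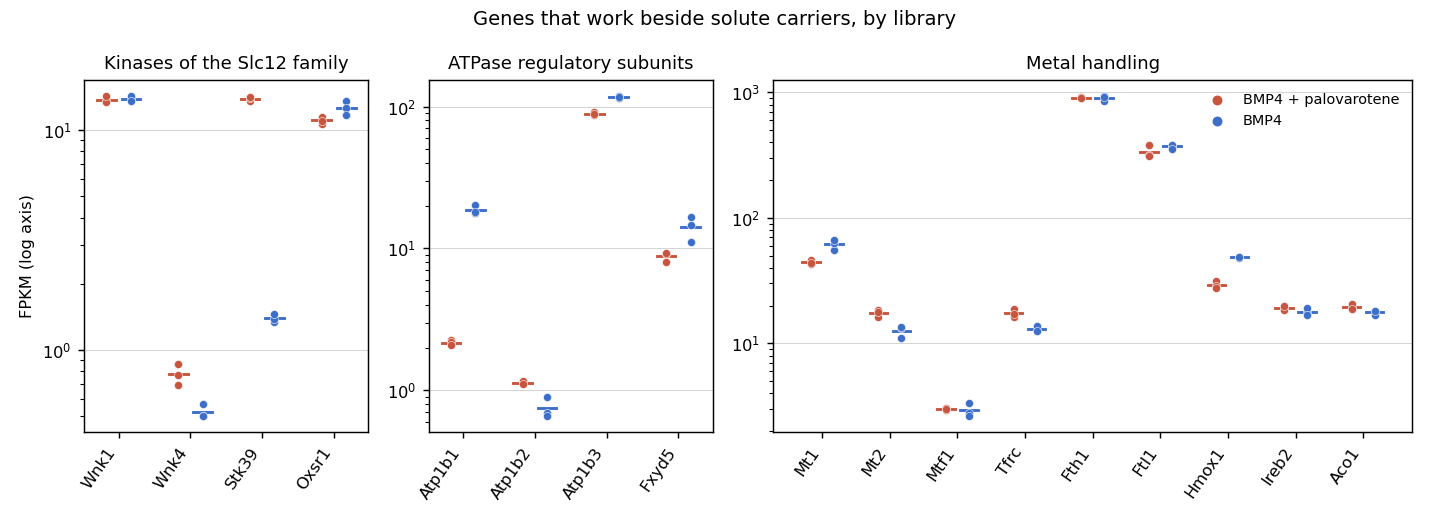
FPKM (log axis) in each library for genes that work beside solute carriers: kinases of the Slc12 family, regulatory subunits of the sodium-potassium ATPase and genes of metal handling; points are libraries, bars are means, red is BMP4 + palovarotene and blue is BMP4. Stk39 is far higher and Atp1b1 far lower in the palovarotene libraries, while Wnk1, Fth1 and Mtf1 overlap.

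Of the chaperones that take Slc16a1 to the cell surface, Bsg lay at 188 ± 24.98 FPKM with BMP4 + palovarotene and 170.5 ± 17.3 FPKM with BMP4 (SD, n = 3 each) and missed the threshold (log2 fold change 0.14, adjusted p = 0.345), whereas Emb fell (9.15 ± 0.203 FPKM with BMP4 + palovarotene and 11.4 ± 0.341 FPKM with BMP4; log2 fold change -0.29, adjusted p = 0.00236). Among 8 enzymes that handle glucose, lactate and glutamine, 3 rose (37.5%) and 0 fell by limma (0 lower at an unadjusted p below 0.05). The background over all genes was 19.1% higher and 23.8% lower, and the margins were not tested. Hk2, hexokinase 2, was at 6.94, 7.17 and 7.40 FPKM with BMP4 + palovarotene, against 4.34, 4.54 and 4.51 FPKM with BMP4 (log2 fold change 0.58, adjusted p = 0.000128), and Glul, glutamine synthetase, at 63.96, 60.4 and 64.7 FPKM with BMP4 + palovarotene, against 42.1, 44.3 and 42.96 FPKM with BMP4. Glul rose by 0.54 log2 units (SE 0.0439, adjusted p = 0.000107). Asns, asparagine synthetase, was called higher by 0.32, not without BMP4 + palovarotene replicate 1 or 3. Among 9 metal-response genes 2 rose and 2 fell (22.2% each, near that background). The metallothionein genes were split, Mt1 lower (log2 fold change -0.47, adjusted p = 0.00247) and Mt2 higher (log2 fold change 0.44, adjusted p = 0.00644). The transferrin receptor Tfrc rose by 0.39, and Hmox1, which degrades haem, fell, at 29.3 ± 1.99 FPKM with BMP4 + palovarotene and 48.5 ± 0.864 FPKM with BMP4 (SD, n = 3 each) (log2 fold change -0.71, adjusted p = 8.41e-05). Of 12 genes of amino acid sensing at the lysosome, 2 were called higher (16.7%) and 4 lower (33.3%), and of these Lamtor3 (log2 fold change -0.28) and Rragc (-0.29) held whichever library was left out.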

How the data were processed

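The authors deposited FPKM values per gene and per transcript for 6 libraries, per the file headers; HISAT2, StringTie, cutadapt and FastQC, on GRCm38, are named per the submitters' processing notes, with no versions. The library kit marked strand, per the labels' protocols; use of strand in quantification is unstated. The higher group mean was never below 0.5004 FPKM in the gene table, so lower genes are not analysed here. FPKM holds no counts: low values showed no common step of 1 fragment (best mean cosine 0.279 to 0.380, and 0.259 to 0.384 after random jitter), so depth is unknown. Listed genes summed to 244119 to 251290 FPKM per library.

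Values were tested as log2(FPKM + 1) by limma 3.58.1 (R 4.3.3) with a variance trend, and p-values were adjusted by Benjamini-Hochberg over every row averaging 0.5 FPKM or more (11584 genes, 21101 transcripts). On simulated data with the spread of the 11584 genes it recovered 83.6% of 1.5-fold, 86.6% of 2-fold and 98.5% of 4-fold changes, and with that of the 21101 transcripts 35.8%, 61.2% and 71.2%. Changes of each size were planted in 66 or 67 rows, all with a mean above 2 on the log2(FPKM + 1) scale. These shares therefore do not speak for genes of lower level. Far fewer rows were changed in the simulations than the 4976 genes and 2724 transcripts called in the data. The adjusted p depends on that number, so these shares do not give the recovery in the data. Substrate groups follow the family number. Genes named were the 10 largest rises and falls without overlap and with a mean of at least 1 FPKM, 22 fixed genes (20 listed), and in each substrate group the 3 with the smallest p and the most abundant; others were chosen after their values were seen. Members, lists and rules were chosen with earlier results of these data known. Tried as alternatives were quantile and median-ratio scaling, a 0.1 pseudocount, no filter and a filter at 5 FPKM, a fit lacking the trend, a block for replicate number, and fits lacking 1 library. Promoter windows were matched by symbol. A few genes counted among the members and lists are not reported here by name.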

Additional observations from a re-analysis of the deposited data

How the results depend on the processing

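Among the 51 solute carriers that the rule for naming takes, no called gene changed direction under any alternative: 612 values kept their direction and their side of the threshold, 16 lost the call, 4 gained it and 10, all of genes not called, changed sign. These genes were taken in part for large changes or small p-values in the same data, so their stability does not speak for the others. Of all 72 calls, 53 were lost in no alternative in which they were tested, and the replicate block kept 60. With 1 library left out, the log2 fold change of Slc12a4 ran from -0.111 to 0.0307 (above 0 without BMP4 replicate 1), that of Slc4a1ap from -0.0284 to 0.0291 (above 0 in 3 of these fits) and that of Slc7a6os from -0.0486 to 0.0974 (below 0 in 4). Slc4a1ap was also above 0 under quantile normalization (0.0296) and median-ratio scaling (0.0229). The causes were not tested. Further losses, of genes named outside that rule, stand beside them. A pseudocount of 0.1 gave 8 solute carriers at least 2-fold higher and 4 lower. With genes under a mean of 5 FPKM removed, 79 solute carriers were tested, with 13 higher and 27 lower, 1 of them 2-fold higher and 0 2-fold lower, since Slc16a10 and Slc5a3 have lower means; over all genes 1419 were higher and 1692 lower, 6 ABC transporters were lower and 10 solute carrier transcripts higher. Median-ratio scaling gave 32 higher and 38 lower, and quantile normalization 31 and 40.

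No label ties a replicate number to a culture or day, and libraries with the same number did not deviate together (correlations -0.06, -0.14 and -0.02); none of the 6 correlated best with its own number. With the replicate number as a block, 23 solute carriers were higher and 38 lower, 5 of their transcripts were higher and 3 lower, and 3 ABC transporters were higher.

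With 1 library left out, the numbers lay between 21 and 27 for solute carriers higher and 36 and 45 lower, 3 and 5 at least 2-fold higher, 2 and 3 at least 2-fold lower, 9 and 15 for their transcripts higher and 8 and 18 lower, 3 and 5 for ABC transporters higher and 8 and 11 lower, and 7 and 10 for the genes that work beside carriers higher and 9 and 11 lower. Unknown depth and the lower bound of the table limit what can be said of genes near 0.5 FPKM.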

Other observations

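The ABC transporters, which pump lipids, drugs and other compounds with the energy of ATP, were the other large class of transporter genes in the table. Of 30 listed, 29 were tested, 5 rose and 11 fell, against backgrounds of 19.1% and 23.8%. Abca3, a phospholipid transporter of lamellar bodies, was at 12.5, 13.4 and 12.9 FPKM with BMP4 + palovarotene, against 6.18, 5.77 and 6.10 FPKM with BMP4 (log2 fold change 0.99, SE 0.0498, adjusted p = 1.11e-05). Abcg1, which exports cholesterol to high-density lipoprotein, was at 2.18, 1.98 and 2.03 FPKM with BMP4 + palovarotene, against 6.15, 6.51 and 5.9997 FPKM with BMP4 (log2 fold change -1.24, SE 0.0553, adjusted p = 6.73e-06). The groups were far apart in both. Abca8a fell, at 0.790 ± 0.0651 FPKM with BMP4 + palovarotene and 1.99 ± 0.210 FPKM with BMP4 (SD, n = 3 each) (log2 fold change -0.74, adjusted p = 0.000173), and its neighbour and close paralogue Abca8b fell by 0.43; reads of such paralogues can be split between them. Abcb1a, a drug efflux pump gene, was too low for the test, at 0.762, 0.666 and 0.775 FPKM with BMP4 + palovarotene, against 0.215, 0.168 and 0.171 FPKM with BMP4, while its paralogue Abcb1b fell by 0.29. Abcb1a was listed through its palovarotene libraries alone. Without BMP4 + palovarotene replicate 1 or 3, 3 of the ABC transporters rose.

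Among solute carriers that did not enter the test, Slc24a3 was at 0.802, 0.444 and 0.278 FPKM with BMP4 + palovarotene and 0.379, 0.375 and 0.382 FPKM with BMP4 and Slc17a7 at 0.534, 0.499 and 0.474 FPKM with BMP4 + palovarotene and 0.413, 0.383 and 0.472 FPKM with BMP4. Both were listed through their palovarotene libraries alone.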
